A study of Homo sapiens with 18 samples.

Results

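The annexins and the S100 proteins that bind them were read on HG-U133A arrays of SK-N-MC cells grown with rotenone. The 10 genes are ANXA1, ANXA2, ANXA4, ANXA5, ANXA6, ANXA7, ANXA11, S100A10, S100A11 and S100B, and each was read through all probe sets that the platform annotation assigns to that gene alone, which gave 15 of the 22283 probe sets of the array. ANXA2 has 3 probe sets, ANXA4, ANXA7 and ANXA11 have 2 each, and the other genes have 1; a further probe set that the annotation shares between SNU13 and ANXA2 was left out by this rule. All 15 passed the filter on low signal (at least 50 on at least 3 arrays) that left 9162 genes for the test.

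SK-N-MC is an established human tumour line, called neuroepithelioma in the labels and neuroblastoma by the study, and rotenone, a plant compound used against insects, inhibits mitochondrial complex I and disturbs microtubules. Cells were exposed to 0, 5 or 50 nM rotenone, in medium without pyruvate and with the vehicle ethanol at 0.05%, and collected after 4 weeks (4w0 nM, 4w5 nM and 4w50 nM) or 1 week (1w0 nM, 1w5 nM and 1w50 nM). Each of the 6 groups has 3 arrays, and each array holds RNA of dishes pooled within 1 of 3 experiments. The groups therefore share the line and the medium, and all values come from a single line. The labels call the lower dose non-lethal where the study calls it marginally lethal. The study reported cell death at both doses, and more of it at the higher dose.

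Annexins bind negatively charged phospholipids when calcium rises and thereby attach to membranes, where they take part in vesicle traffic, membrane repair and the anchoring of actin. S100 proteins are small EF-hand proteins that work as dimers and bind a partner when loaded with calcium; S100A10 is the exception, locked in the active form without calcium. A dimer of S100A10 joins a pair of ANXA2 molecules in a complex that brings plasminogen and its activators to the cell surface, S100A11 binds the end of ANXA1 in a similar way, and S100B, abundant in glia and in melanocytes, is a cytosolic calcium sensor that is also secreted and then binds the receptor AGER.

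The promoters of the 2 annexin and S100 pairs are shown because these S100 proteins are known to bind these annexins. They are from RefSeq (GRCh38.p14) and run from 250 bases before to 50 bases after the annotated start, on the strand of the gene. The table has an entry for 9 of the 10 genes, and S100B is named only. Capitals mark every match, on either strand, to TATAAA (the TATA box), TGANTCA (an AP-1 site), CCAAT (the CCAAT box, ATTGG on the other strand) and GGGCGG (a GC box).
ANXA1, chr9:73151615-73151914, plus strand: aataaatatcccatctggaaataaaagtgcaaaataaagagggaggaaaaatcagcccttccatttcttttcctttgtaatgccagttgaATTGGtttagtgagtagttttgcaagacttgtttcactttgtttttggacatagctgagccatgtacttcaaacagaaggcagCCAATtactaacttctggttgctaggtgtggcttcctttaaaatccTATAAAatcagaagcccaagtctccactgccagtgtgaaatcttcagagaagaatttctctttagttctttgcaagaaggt
S100A11, chr1:152036955-152037254, minus strand: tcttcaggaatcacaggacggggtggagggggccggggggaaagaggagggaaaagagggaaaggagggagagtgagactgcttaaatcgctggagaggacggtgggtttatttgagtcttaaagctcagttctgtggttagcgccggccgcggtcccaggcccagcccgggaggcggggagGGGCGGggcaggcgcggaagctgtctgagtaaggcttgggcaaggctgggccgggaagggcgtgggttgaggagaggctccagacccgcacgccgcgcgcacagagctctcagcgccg
ANXA2, chr15:60397937-60398236, minus strand: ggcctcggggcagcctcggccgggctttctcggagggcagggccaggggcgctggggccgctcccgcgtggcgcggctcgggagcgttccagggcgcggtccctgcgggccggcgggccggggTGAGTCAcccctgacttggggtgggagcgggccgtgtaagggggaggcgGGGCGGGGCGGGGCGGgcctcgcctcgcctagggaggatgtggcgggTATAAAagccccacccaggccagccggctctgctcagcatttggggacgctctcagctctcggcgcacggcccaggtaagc
S100A10, chr1:151993810-151994109, minus strand: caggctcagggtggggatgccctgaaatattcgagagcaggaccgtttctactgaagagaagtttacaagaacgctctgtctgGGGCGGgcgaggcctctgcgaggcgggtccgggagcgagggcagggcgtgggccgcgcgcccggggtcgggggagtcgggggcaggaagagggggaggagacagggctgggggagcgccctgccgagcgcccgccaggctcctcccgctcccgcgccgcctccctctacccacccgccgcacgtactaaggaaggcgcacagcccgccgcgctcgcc
Both annexin promoters hold TATAAA with its first base 31 bases before the start, and neither S100 promoter holds it. ANXA1 has 2 CCAAT matches and no GGGCGG, ANXA2 has 1 TGANTCA and 3 overlapping GGGCGG matches, and S100A10 and S100A11 have 1 GGGCGG each. Over the 35116 promoters of this length in the table, TATAAA is found in 11.5%, TGANTCA in 7.71%, CCAAT in 34.6% and GGGCGG in 45%. These matches describe the letters only.

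The signals are the model-based expression indexes of dChip on a linear scale, and fold changes are on the log2 scale after signals below 16 were set to 16, so that a fold is the ratio of geometric means over the arrays of each group. Array medians lay between 87.0 and 102. Arrays of the same group correlated with r of at least 0.967, except in 1w0 nM, where the lowest r was 0.914, and replicate 3 of that group stands apart for several genes below. The 18 hybridization control probe sets averaged, on the log2 scale, 8.87 ± 0.21 in 4w5 nM arrays and 8.96 ± 0.05 in 4w50 nM arrays (SD, n = 3 each), against 9.92 ± 0.11 in 4w0 nM arrays, so they move with the same 6 arrays as the 4-week results; their part in these results was not tested. In RNA from whole cultures, less RNA per cell and fewer cells of a type cannot be told apart. Group means in the tables of the study are, for most probe sets listed there, matched by the deposited arrays of the 1-week rotenone groups only when 1 array of each is exchanged for the other. These are 1w5 nM replicate 2 and 1w50 nM replicate 3, which were kept here as labelled, and the 1-week calls of the 10 genes are also given with them exchanged. Genes that mark Ewing-family tumours were measured for 6 of 8, with a summed signal of 10620.0 to 12233 in 4w50 nM against 14005 to 14541 in 4w0 nM and of 9596 or more on every array. Of these 6, 4 were called lower in 4w50 nM (17.7% of all genes were), 3 higher in 1w5 nM (4.98%), and 3 higher and 1 lower in 1w50 nM (8.75% and 11.3%). Their summed signal in 4w5 nM was 12977 to 14756. Only PRKCB was called there, lower (log2 fold change -0.50, limma adjusted p = 0.00297), where 14.3% of all genes were lower. Neuronal genes were measured for 9 of 11, with NEFM and STMN2 below the filter. In 4w5 nM 1 of the 9 was called, DCX, which was lower (log2 fold change -1.68, adjusted p = 0.00207). In 4w50 nM TUBB3 and UCHL1 were called lower (-1.12 and -0.33, adjusted p = 0.0013 and 0.0011) and none higher. Of all genes 14.3% were lower in 4w5 nM and 17.7% in 4w50 nM. With 50 nM against 5 nM at 4 weeks DCX was higher (2.55, adjusted p = 0.000396) and UCHL1 lower (-0.28, adjusted p = 0.00997). At 1 week none was called with 5 nM, and with 50 nM only DCX was, higher (adjusted p = 0.0281). The part of these genes in the results below was not tested.

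At 4 weeks the 3 S100 genes were lower and ANXA1 was higher in cells grown with 5 nM rotenone, and ANXA2 was lower with 50 nM. At 1 week the fold changes of ANXA1, S100A10, S100A11 and S100B had the opposite sign, and not all passed the test. With 5 nM at 4 weeks 1 of the 10 genes was called higher and 3 lower at a limma adjusted p below 0.05, where 18.6% of all 9162 genes were called higher and 14.3% lower. With 50 nM at 4 weeks none was called higher and 3 were called lower, against 23.5% and 17.7% of all genes. At 1 week 1 was called higher and none lower with 5 nM (4.98% and 1.62% of all genes), and 2 were called higher and 1 lower with 50 nM (8.75% and 11.3% of all genes). With the labels as deposited ANXA4, ANXA5, ANXA6, ANXA7 and ANXA11 were called in none of these 4 comparisons. For ANXA4 and ANXA7 this holds for the probe set read for the gene. With the 2 arrays exchanged no gene was called with 5 nM and 3 were with 50 nM. The log2 fold change of S100B with 5 nM was 0.77 (adjusted p = 0.0527) and that of S100A11 with 50 nM 1.03 (adjusted p = 0.0655), neither past the test; ANXA1 and S100A10 with 50 nM still passed (-0.73 and 0.72, adjusted p = 0.00851 and 0.00866) and ANXA6 then passed (0.34, adjusted p = 0.0416). The plot of signals by array shows the 10 genes side by side.

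**Figure D1:**
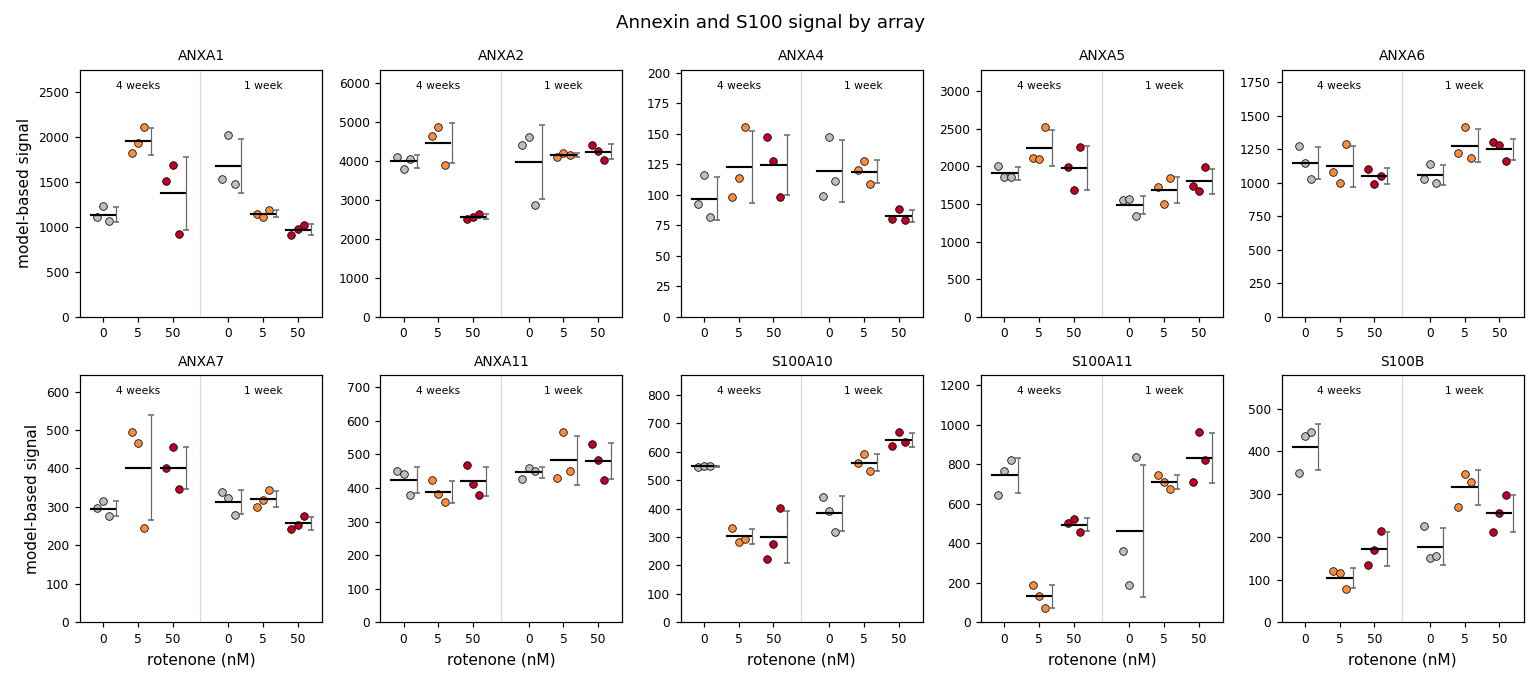
Signal (linear, y axis from 0) of the 10 genes on each of the 18 arrays, by rotenone dose in nM at 4 weeks (left) and 1 week (right) of each panel. Points are arrays in replicate order, black lines group means and grey bars the SD over 3 arrays; S100A11 is lowest on the 3 arrays of 4w5 nM, and its 1w0 nM arrays spread from 191 to 835.

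S100A11, the dimer that binds ANXA1, changed most in fold among the 10 genes. Its signals at 4 weeks were 644, 765 and 818 with vehicle, 190.3, 132 and 73.6 with 5 nM and 500.1, 524 and 457 with 50 nM. Every 5 nM array lay far below every vehicle array, and the 50 nM arrays lay between them without overlap. It averaged 132 ± 58.4 (SD, n = 3) in 4w5 nM cells and 743 ± 89.1 in 4w0 nM cells, a fall of 6.01-fold (log2 fold change -2.59 ± 0.37 (SE), limma adjusted p = 7.86e-05). With 50 nM the mean was 494 ± 34.0, and the log2 fold change of -0.58 ± 0.37 (SE) did not pass the test (adjusted p = 0.222), although it did when only the arrays of these groups were fitted (adjusted p = 0.00199). The spread that the fit pools over all groups holds that of 1w0 nM, whose arrays gave 359.8, 191 and 835, with replicate 3 above both others. The signals of 745, 710.1 and 673 in 1w5 nM and 711, 961 and 821 in 1w50 nM overlap with it. S100A11 was called higher in 1w50 nM (log2 fold change 1.10 ± 0.37 (SE), limma adjusted p = 0.0449), a call that was lost without any one of 15 of the 18 arrays (adjusted p = 0.0516 to 0.224); it held without replicate 1 or 3 of 4w5 nM or replicate 3 of 1w0 nM, and without 1w0 nM replicate 2 the log2 fold change was 0.59. In 1w5 nM it had a log2 fold change of 0.88 ± 0.37 (SE) (adjusted p = 0.161). Without 1w0 nM replicate 3 these values were 1.65 (adjusted p = 0.000336) with 50 nM and 1.44 (adjusted p = 0.00411) with 5 nM.

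ANXA1, a substrate of growth factor receptor kinases and an anti-inflammatory ligand when secreted, had the opposite sign of fold change to its partner in each dose comparison, though not every change passed the test. It also had the opposite sign to S100A10 and S100B in each, so this is not particular to the pair. At 4 weeks its signals were 1114, 1233 and 1065 with vehicle, 1822, 1932 and 2117 with 5 nM and 1516, 1688 and 918 with 50 nM. The 5 nM arrays were all above the vehicle arrays, while 50 nM replicate 3 was below all of them and the other 2 above. ANXA1 averaged 1957 ± 149 (SD, n = 3) in 4w5 nM cells and 1137 ± 86.3 in 4w0 nM cells and rose 1.72-fold (log2 fold change 0.78 ± 0.17 (SE), limma adjusted p = 0.00214). With 50 nM the log2 fold change was 0.23 ± 0.17 (SE) (adjusted p = 0.301), and 0.50 without replicate 3 (adjusted p = 0.00617). At 1 week the signals were 1531, 2026 and 1480.1 with vehicle, 1149, 1113 and 1189.6 with 5 nM and 911, 983 and 1023 with 50 nM, and every rotenone array lay below every vehicle array. ANXA1 fell 1.71-fold in 1w50 nM against 1w0 nM (log2 fold change -0.78 ± 0.17 (SE), limma adjusted p = 0.00495). In 1w5 nM its log2 fold change of -0.53 ± 0.17 (SE) did not pass (adjusted p = 0.0684); it did without 1w0 nM replicate 3 or without 4w50 nM replicate 3 (adjusted p = 0.0368 and 0.0113). Of 7 macrophage and leukocyte genes 3 were measured, PTPRC, AIF1 and CD163, and their summed signal was 1429 to 1639.6 in 4w5 nM and 591 to 897 in 4w50 nM against 493 to 578 in 4w0 nM, and 421 to 481 in 1w50 nM against 854 to 1196 in 1w0 nM. The 3 did not move together: in 4w5 nM PTPRC was higher (1483 ± 126 against 417 ± 42.7 in 4w0 nM, log2 fold change 1.83, adjusted p = 0.0351), while the log2 fold changes of AIF1 and CD163 were -1.05 and -0.06 (adjusted p = 0.123 and 0.865). In 4w50 nM AIF1 was higher (log2 fold change 2.62, adjusted p = 0.000619) and that of PTPRC was -1.01 (adjusted p = 0.218). CD14, CSF1R and LYZ of the same list stayed below the filter, at 21.2, 41.7 and 23.8 at most, and CD68 was not measured. The part of these genes in the ANXA1 result was not tested.

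ANXA2, which organizes actin and cholesterol-rich membrane and holds the plasminogen complex with S100A10, was lower at the higher dose and the later time. Its probe set with the highest mean, 201590_x_at, read 4111, 3803 and 4057 in 4w0 nM, 4629, 4879.8 and 3896 in 4w5 nM and 2501, 2564 and 2639.7 in 4w50 nM. The 50 nM arrays were close to each other and lay below all other arrays of the study. ANXA2 averaged 2569 ± 69.2 (SD, n = 3) in 4w50 nM cells and 3990.4 ± 164 in 4w0 nM cells, a fall of 1.55-fold (log2 fold change -0.64 ± 0.13 (SE), limma adjusted p = 0.000717). The probe sets 210427_x_at and 213503_x_at fell as well, with log2 fold changes of -0.46 ± 0.13 (SE) and -0.63 ± 0.15 (SE) (adjusted p = 0.00861 and 0.00247 over all 13705 probe sets). With 5 nM they gave 0.16 ± 0.13 (SE) for 201590_x_at (adjusted p = 0.361), 0.41 ± 0.13 (SE) for 210427_x_at (adjusted p = 0.0219) and 0.35 ± 0.15 (SE) for 213503_x_at (adjusted p = 0.0769), so only 210427_x_at was called higher. Over the 18 arrays the 3 probe sets correlated with r of 0.93 to 0.98. All 3 carry the suffix of probe sets that may hybridize to related sequences, and the signal of ANXA2 cannot be told apart from that of its processed pseudogenes. At 1 week the vehicle arrays gave 4406, 4619.7 and 2879, with replicate 3 low, and the rotenone arrays lay between 4029 and 4409. No ANXA2 probe set passed the test at 1 week, with log2 fold changes between 0.10 and 0.24.

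S100A10, the partner of ANXA2 in the plasminogen complex, was lower at both doses at 4 weeks, and at 5 nM 201590_x_at of ANXA2 did not pass. Its signals were 547, 550.1 and 550.5 with vehicle, 333, 282 and 292 with 5 nM and 224, 274 and 403 with 50 nM. The 3 vehicle arrays were almost equal and lay above all 6 rotenone arrays, of which 50 nM replicate 3 was the highest. It averaged 549 ± 2.17 with vehicle, 303 ± 27 with 5 nM and 300.4 ± 92.7 with 50 nM at 4 weeks (SD, n = 3 each). The fall was 1.82-fold with 5 nM (log2 fold change -0.86 ± 0.17 (SE), limma adjusted p = 0.000992) and 1.88-fold with 50 nM (log2 fold change -0.91 ± 0.17 (SE), adjusted p = 0.000404). At 1 week the signals were 439.5, 390.3 and 319 with vehicle, 562, 593 and 532 with 5 nM and 619.9, 669 and 633 with 50 nM, with every rotenone array above every vehicle array. S100A10 rose 1.69-fold with 50 nM (log2 fold change 0.75 ± 0.17 (SE), limma adjusted p = 0.00553). With 5 nM its log2 fold change of 0.57 ± 0.17 (SE) did not pass (adjusted p = 0.0535) and passed without 1 of 4 arrays (4w5 nM replicate 3, 4w50 nM replicates 1 and 3, 1w0 nM replicate 1; adjusted p = 0.0147 to 0.0456). Over the 18 arrays the log2 signals of ANXA2 and S100A10 had a Pearson r of 0.49 and a Spearman rho of 0.26, and those of ANXA1 and S100A11 had -0.81 and -0.69; the arrays share 6 group means, and within groups r was 0.44 and -0.34. These values are not particular to the pairs. ANXA1 had r of -0.78 with S100A10 and -0.76 with S100B, and within groups -0.60 and -0.45. S100A10 had r of 0.81 with S100B, and 0.64 within groups, above its values with ANXA2.

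S100B, the calcium sensor of glia and melanocytes, was lower at both doses at 4 weeks and had the lowest adjusted p of the 10 genes in the 5 nM comparison. The signals were 349.7, 437 and 445 with vehicle, 120.3, 115 and 77.5 with 5 nM and 134, 169 and 214 with 50 nM. No array of one dose overlapped with those of another. S100B averaged 411 ± 52.9 with vehicle, 104 ± 23.4 with 5 nM and 172 ± 40.2 with 50 nM at 4 weeks (SD, n = 3 each). It fell 3.99-fold with 5 nM (log2 fold change -2.00 ± 0.21 (SE), limma adjusted p = 6.06e-06) and 2.41-fold with 50 nM (log2 fold change -1.27 ± 0.21 (SE), adjusted p = 0.000165). At 1 week the signals were 227, 151 and 155 with vehicle, 271, 348 and 328 with 5 nM and 211, 257 and 298 with 50 nM. The 5 nM arrays were all above vehicle, and S100B rose 1.80-fold (log2 fold change 0.85 ± 0.21 (SE), limma adjusted p = 0.0221). This call was lost without 1w0 nM replicate 2 (adjusted p = 0.057), 1w5 nM replicate 2 (0.113) or 1w5 nM replicate 3 (0.0719). The 50 nM arrays overlapped with vehicle and had a log2 fold change of 0.54 ± 0.21 (SE) (adjusted p = 0.0825), which passed without 1w0 nM replicate 1 (adjusted p = 0.0393). Of 8 Schwann cell and glia markers only NGFR was measured, and it was lower in 4w50 nM (207 ± 70.3 against 440.1 ± 25.2 in 4w0 nM, log2 fold change -1.14, adjusted p = 0.0132), with a log2 fold change of -0.24 in 4w5 nM (adjusted p = 0.628). SOX10, GFAP, MBP, ERBB3 and FOXD3 did not pass the filter, with 61.6 the highest signal among them on any array. The part of NGFR-expressing cells in the S100B result was not tested.

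**Figure D2:**
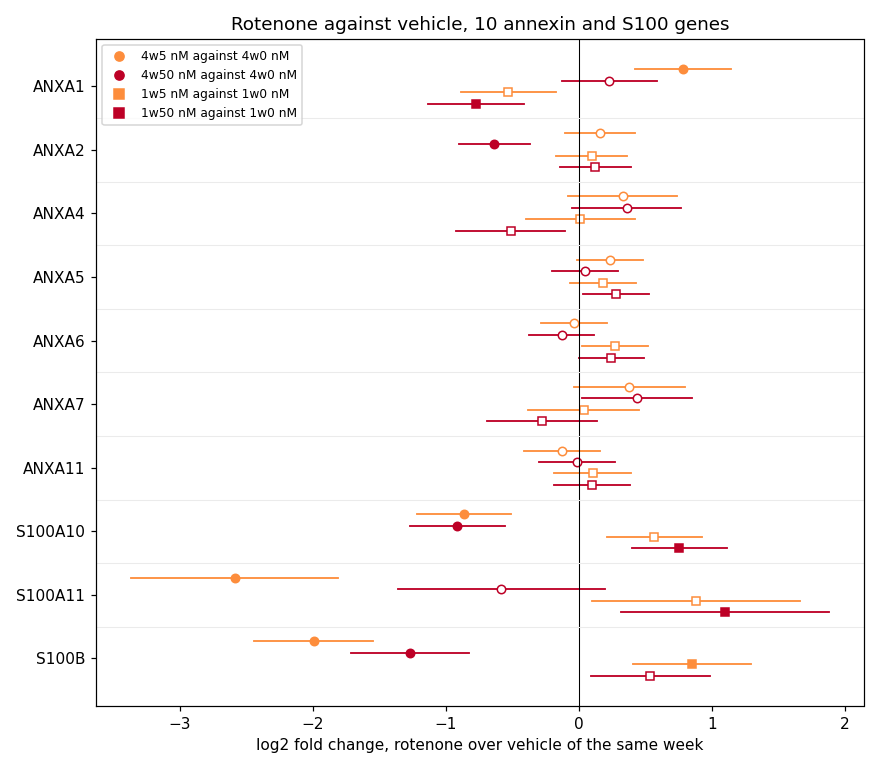
log2 fold change of rotenone over the vehicle of the same week (x axis) for the 10 genes, with 95% confidence intervals from limma; circles are 4 weeks, squares 1 week, orange 5 nM, red 50 nM. Filled symbols passed the test at an adjusted p below 0.05, open symbols did not. ANXA4, ANXA5, ANXA6, ANXA7 and ANXA11 have open symbols in each of the 4 comparisons.

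ANXA7, which aggregates and fuses secretory granule membranes, ANXA11, which tethers RNA granules to lysosomes, and ANXA4 each have 2 probe sets, and these did not give the same calls for ANXA7 and ANXA4. For ANXA7 the probe set 201366_at read 151, 203 and 215 in 4w0 nM, 442, 361 and 395 in 4w5 nM and 457, 471 and 438 in 4w50 nM. All 6 rotenone arrays lay above all vehicle arrays, and the probe set rose 2.12-fold with 5 nM and 2.43-fold with 50 nM (log2 fold change 1.09 ± 0.17 (SE) and 1.28 ± 0.17 (SE), limma adjusted p = 0.000171 and 2.62e-05). The other, 209860_s_at, which has the higher mean and was read for the gene, gave 297, 314 and 275, then 494, 467 and 245 and then 402, 456 and 347 at 0, 5 and 50 nM. Its replicate 3 of 4w5 nM was below vehicle, and the log2 fold changes of 0.38 ± 0.20 (SE) and 0.44 ± 0.20 (SE) did not pass (adjusted p = 0.15 and 0.0876). Without that array they were 0.70 and 0.44, and both passed (adjusted p = 0.00137 and 0.00866). At 1 week neither ANXA7 probe set passed, with log2 fold changes from -0.28 to 0.04.

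ANXA4, an annexin typical of epithelia, was dim. Its probe set 201302_at gave 69.6, 69.8 and 69.6 in 4w0 nM, 109.9, 88.7 and 164 in 4w5 nM and 169, 137 and 84.7 in 4w50 nM, and rose 1.68-fold and 1.80-fold at the lower and higher dose (log2 fold change 0.75 ± 0.24 (SE) and 0.85 ± 0.24 (SE), limma adjusted p = 0.0223 and 0.00872). The brighter 201301_s_at ranged from 79.0 to 156 over all arrays and passed in none of the 4 comparisons, with log2 fold changes of 0.33 ± 0.19 (SE) for 4w5 nM and 0.36 ± 0.19 (SE) for 4w50 nM. Over the 18 arrays r between the probe sets was 0.63 for ANXA4, 0.66 for ANXA7 and -0.41 for ANXA11, whose signals ranged from 358 to 566 for 206200_s_at and from 55.0 to 148 for 214783_s_at. Neither ANXA11 probe set passed, and in the 4 dose comparisons the log2 fold changes of 206200_s_at lay between -0.13 and 0.10 and those of 214783_s_at between 0.22 and 0.45 (lowest adjusted p = 0.088, in 1w50 nM). Counted by probe set, with 5 nM at 4 weeks 7 of the 15 passed (4 higher, 3 lower), where 32.4% of all 13705 probe sets did, and with 50 nM 7 passed (2 higher, 5 lower; 41% of all). At 1 week 1 passed with 5 nM, higher (6.68% of all), and 3 with 50 nM, 2 higher and 1 lower (21.8% of all). The plot of probe sets sets these values side by side.

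**Figure D3:**
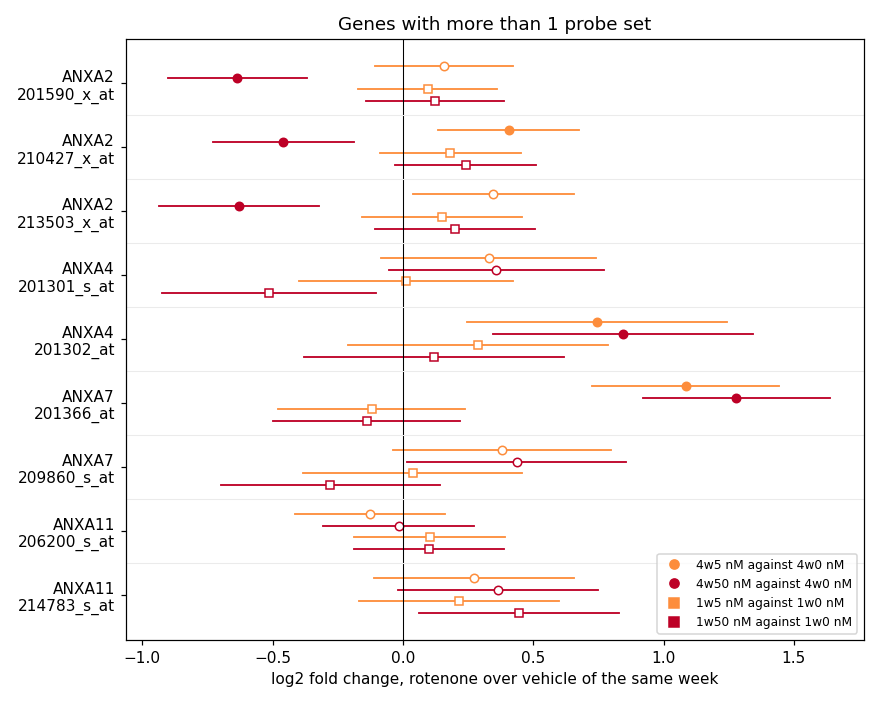
log2 fold change of rotenone over the vehicle of the same week (x axis) for each probe set of the genes with more than 1, with 95% confidence intervals from limma; circles are 4 weeks, squares 1 week, orange 5 nM, red 50 nM, and filled symbols passed at an adjusted p below 0.05 over all probe sets. The 3 ANXA2 probe sets fall together with 50 nM at 4 weeks, while for ANXA4 and ANXA7 1 of the 2 passed at 4 weeks.

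ANXA5, the phosphatidylserine binder used as a stain for dying cells, and ANXA6, an annexin of the endocytic pathway, were well above the filter and not called. ANXA5 averaged 1907 ± 82.4 with vehicle, 2245 ± 243 with 5 nM and 1977 ± 287 with 50 nM at 4 weeks (SD, n = 3 each), and 1486 ± 122 with vehicle, 1686 ± 177 with 5 nM and 1801 ± 165 with 50 nM at 1 week (SD, n = 3 each). Its log2 fold changes lay between 0.04 and 0.28 in the 4 dose comparisons, and the 95% interval for 1w50 nM ran from 0.03 to 0.53, with an adjusted p of 0.106. ANXA6 lay between 989.9 and 1419.6 on all arrays. Its log2 fold change was -0.04 ± 0.12 (SE) in 4w5 nM, -0.13 ± 0.12 (SE) in 4w50 nM, 0.27 ± 0.12 (SE) in 1w5 nM and 0.24 ± 0.12 (SE) in 1w50 nM, with adjusted p of 0.829, 0.394, 0.169 and 0.15. For both genes no step between neighbours, in the order of the 6 group means, passed the test.

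Between the doses at 4 weeks, 2 of the 10 genes were called higher and 2 lower with 50 nM, where 10.1% of all genes were higher and 7.35% lower. S100A11 was 4.01-fold higher with 50 nM than with 5 nM (log2 fold change 2.00 ± 0.37 (SE), limma adjusted p = 0.00157) and S100B 1.65-fold (log2 fold change 0.72 ± 0.21 (SE), adjusted p = 0.025). ANXA2 was 1.73-fold lower (log2 fold change -0.79 ± 0.13 (SE), adjusted p = 0.000641) and ANXA1 1.47-fold (log2 fold change -0.56 ± 0.17 (SE), adjusted p = 0.0321). S100A10 had a log2 fold change of -0.05 ± 0.17 (SE) between the doses and did not pass (adjusted p = 0.887), with a 95% interval from -0.41 to 0.31. The ANXA1 call was lost when replicate 2 or 3 of 4w5 nM or replicate 3 of 4w50 nM was left out (log2 fold change -0.56, -0.50 and -0.29, adjusted p = 0.08, 0.0795 and 0.133), and that of S100B when replicate 3 of 4w5 nM or replicate 2 or 3 of 4w50 nM was (0.0995, 0.0714 and 0.0961). At 1 week no member was called between the doses (0% of all genes were higher in 1w50 nM and 0.0109% lower), with 1 of the 10 at an unadjusted p below 0.05 in limma and 4 in the methods' t-test. Array weights called 4, all lower.

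In the vehicle cells themselves, S100B was 2.34-fold higher at 4 weeks than at 1 week, at 411 ± 52.9 (SD, n = 3) in 4w0 nM and 177 ± 42.7 in 1w0 nM cells (log2 fold change 1.23 ± 0.21 (SE), limma adjusted p = 0.00252). It was the only one of the 10 called, where 2.88% of all genes were called higher and 0.72% lower. The log2 fold changes of S100A11, S100A10, ANXA5 and ANXA1 between the vehicle groups were 0.94, 0.53, 0.36 and -0.55 with adjusted p of 0.179, 0.0968, 0.106 and 0.0882. Without 1w0 nM replicate 3, S100A11 was called higher (1.5, adjusted p = 0.00361) and ANXA1 lower (-0.63, adjusted p = 0.0407) at 4 weeks. Leaving out 4w50 nM replicate 3, which lies in neither group but in the pooled spread, let S100A10 and ANXA1 pass (adjusted p = 0.028 and 0.0114).

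Whether the fold change over the vehicle of the same week differed between 4 weeks and 1 week was tested as an interaction. Such a difference also takes in the change between the 2 vehicle groups. S100B, for one, averaged 411 in 4w0 nM, 177 in 1w0 nM and 172 in 4w50 nM. Between 4w0 nM and 1w50 nM the lowest limma adjusted p of the 10 genes was 0.0929, for S100B. The part of the vehicle groups in these differences was not tested. For 5 nM, ANXA1 was called higher and S100A10, S100A11 and S100B lower in the 4-week effect than in the 1-week effect, where 15.2% of all genes were called higher and 17.5% lower. For 50 nM, ANXA1, ANXA4 and ANXA7 were called higher and ANXA2, S100A10, S100A11 and S100B lower, where 24.3% and 20.5% of all genes were. In the order of group means, S100A10, S100A11 and S100B all had 4w5 nM or 4w50 nM at the lowest place, and S100A10 and S100A11 had 1w50 nM at the highest. ANXA1 had 4w5 nM at the highest place and 1w50 nM at the lowest. Few neighbours in these orders differed by the test: for S100A11 it was 4w5 nM against the next higher 1w0 nM (adjusted p = 0.00397), for ANXA2 4w50 nM against the next higher 1w0 nM (adjusted p = 0.00167) and for S100B 4w5 nM against the next higher 4w50 nM (adjusted p = 0.025), and no other of the 10 genes had such a step.

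Of 15 further S100 genes 8 passed the filter, and 4 of them, S100A1, S100A4, S100A6 and S100A13, were called lower with 5 nM at 4 weeks and none higher, where 14.3% of all genes were lower. S100A1, a calcium sensor of muscle and nerve cells, averaged 49.7 ± 4.56 (SD, n = 3) in 4w5 nM and 88.4 ± 2.20 in 4w0 nM cells (log2 fold change -0.83, limma adjusted p = 0.011). S100A4, which binds non-muscle myosin and favours cell migration, had 87.8 ± 10.7 in 4w5 nM and 180.3 ± 14.7 in 4w0 nM (log2 fold change -1.04, adjusted p = 0.00142). S100A6, the ligand of CACYBP, had 32.3 ± 5.97 in 4w5 nM and 83.8 ± 7.76 in 4w0 nM (log2 fold change -1.39, adjusted p = 0.000128), and S100A13, which helps to export growth factors that lack a signal peptide, had 106 ± 8.29 in 4w5 nM and 302 ± 17.6 in 4w0 nM (log2 fold change -1.51, adjusted p = 1.36e-05). With 50 nM at 4 weeks only S100A13 was called, lower (-0.50, adjusted p = 0.031), and all 4 were called higher with 50 nM than with 5 nM, by 0.73 to 1.61 on the log2 scale (10.1% of all genes were higher). At 1 week S100A1 and S100A4 were called higher with 5 nM (1.02 and 0.86; 4.98% of all genes were), and all 4 were called higher with 50 nM, by 0.53 to 1.01 (8.75% of all genes were). S100A2, S100A5, S100A12 and S100A14 passed in none of these comparisons, and the highest signals of S100A3, S100A7, S100A8, S100A9, S100P and S100G were below the filter. The median log2 fold change of the 8 was -0.69 with 5 nM and -0.18 with 50 nM at 4 weeks, and 0.32 with 5 nM and 0.43 with 50 nM at 1 week, where the medians of all genes were 0.03, 0.02, 0.07 and 0.02.

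**Figure D4:**
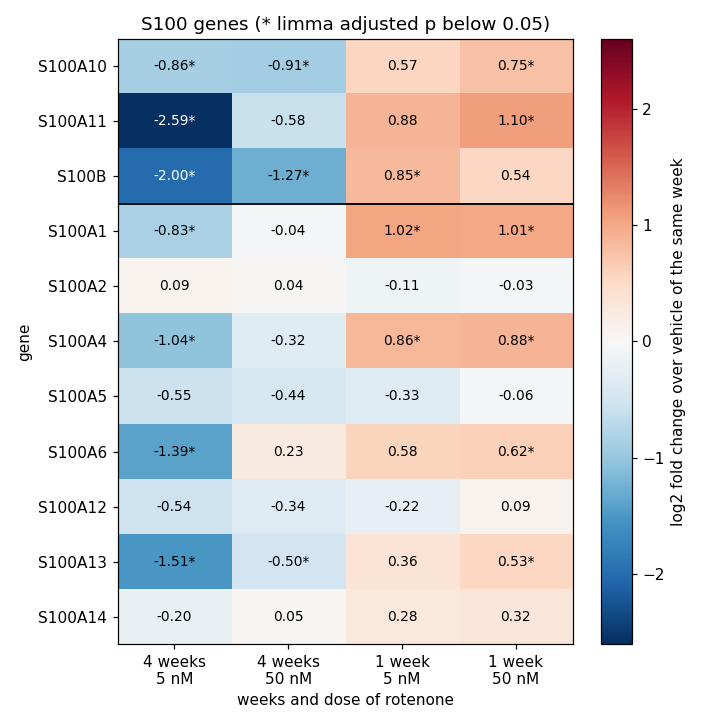
log2 fold change of rotenone over the vehicle of the same week for the 3 S100 genes of the set (above the black line) and the 8 other S100 genes that passed the filter, in 4 comparisons (columns); red is higher and blue lower with rotenone, and an asterisk marks a limma adjusted p below 0.05. At 4 weeks with 5 nM S100A10, S100A11, S100B, S100A1, S100A4, S100A6 and S100A13 all carry an asterisk and are lower.

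Of 12 fibroblast markers 11 were measured, among them S100A4, which is also one of the S100 genes above. In 4w5 nM 1 was called higher and 6 lower, and in 4w50 nM none higher and 6 lower. In both 1w5 nM and 1w50 nM 6 were called higher and none lower. Of all genes 18.6% were higher and 14.3% lower in 4w5 nM, and 17.7% were lower in 4w50 nM. At 1 week 4.98% were higher in 1w5 nM and 8.75% in 1w50 nM. Between the doses at 4 weeks 10.1% of all genes were higher with 50 nM and 7.35% lower. There the S100 genes that passed were all higher, while 4 of the fibroblast markers were higher and 4 lower. Their summed signal was 6258 to 7487 in 4w5 nM and 6482 to 7278 in 4w50 nM against 8945 to 9615 in 4w0 nM, and 9207 to 9692 in 1w5 nM and 8952 to 9413 in 1w50 nM against 6239.5 to 6737 in 1w0 nM. POSTN was below the filter (34.1 at most). The part of these markers in the S100 results was not tested.

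Of 5 other annexins only ANXA9 passed the filter, at 24.4 to 62.2 on all arrays, and was called in none of the comparisons; ANXA3, ANXA10 and ANXA13 stayed below the filter, and ANXA8 has no probe set of its own here. Of 26 ligands, receptors and partners 21 were measured. With 5 nM at 4 weeks 6 were called higher and 1 lower, where 18.6% of all genes were called higher and 14.3% lower. With 50 nM 5 were called higher and 3 lower, near the shares of all genes (23.5% and 17.7%). The 5 include PLA2G4A, which passed the filter only through its 4w50 nM arrays, so its call there was not independent of the filter. PLAUR, the urokinase receptor that works beside the ANXA2 complex, averaged 387 ± 37.9 in 4w5 nM and 204 ± 12.6 in 4w0 nM cells (log2 fold change 0.92, limma adjusted p = 0.00186). CAST, the inhibitor of calpains, was higher with both doses (0.72 in 4w5 nM, adjusted p = 0.0436, and 1.75 in 4w50 nM, adjusted p = 7.38e-05), and CAPN1, a calpain, was lower with both (-0.53 each, adjusted p = 0.021 in 4w5 nM and 0.0165 in 4w50 nM). CACYBP, bound by S100A6, TSG101, an ESCRT subunit, and SRI, a calcium-binding partner of ANXA7, were called higher with both doses, by 0.42 to 0.59 with 5 nM and by 0.39 to 0.61 with 50 nM, and GCA, a relative of SRI, only passed with 5 nM (0.74). AGER, the receptor of S100B, averaged 28.2 ± 7.59 in 4w50 nM and 67.0 ± 0.951 in 4w0 nM cells (-1.29, adjusted p = 0.000498), and with 5 nM it did not pass (-0.61, adjusted p = 0.063). CTSB, a protease that binds the ANXA2 complex, was lower with 50 nM (-1.11, adjusted p = 0.0191), and both it and AHNAK, the giant scaffold bound by S100A10 and ANXA2, were lower with 50 nM than with 5 nM (-1.77 and -0.83, adjusted p = 0.0029 and 0.0309). Between these doses 2 partners were called higher and 2 lower, where 10.1% of all genes were higher and 7.35% lower. The higher ones were CAST (1.03, adjusted p = 0.0125) and PLA2G4A, which has the limit of the filter given above. PLA2G4A, the cytosolic phospholipase that ANXA1 is known to inhibit, averaged 89.8 ± 27 in 4w50 nM cells and was below the floor of 16 in 4w0 nM cells, so its fold change has no measured base there. At 1 week no partner was called with 5 nM. With 50 nM SRI was lower (-0.45, adjusted p = 0.00622) and MS4A1, a B cell surface protein, was called higher (1.16). MS4A1 was dim, at 63.6 ± 9.09 in 1w50 nM and 29.2 ± 8.29 in 1w0 nM. Its means in all other groups were below 50, so it passed the filter through its 1w50 nM arrays. Its call there was therefore not independent of the filter. Its probe set carries the suffix of those that may hybridize to related sequences.

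Among the 9161 other genes the pattern most like that of a member over the 18 arrays, by Pearson r of log2 signal, was CLIC2 for ANXA1 (0.93), BACE2 for ANXA2 (0.96), CD83 for S100A10 (0.97), SLC25A5 for S100A11 (0.96) and COL9A2 for S100B (0.95). EIF1 and E2F5 came next for ANXA1, BLVRB and TNFAIP6 for ANXA2, CSTB and KRT18 for S100A10, TPM2 and ACAA1 for S100A11, and SOX18 and LAGE3 for S100B. For ANXA4, ANXA5, ANXA6, ANXA7 and ANXA11 the highest r was 0.84 to 0.91, with TMEM260, GJA1, GTF2F1, CSE1L and CHPF2. The arrays share 6 group means and 3 per group, so that these r describe likeness of pattern only; after subtraction of the group means r was between 0.69 and 0.90 for the same leading genes.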

How the data were processed

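The deposited table holds 1 intensity value for each of 22283 probe sets on 18 HG-U133A arrays, the model-based signal that the authors computed with dChip on a linear scale; its normalization and version are not given in the sources used here. Signals below 16 were set to 16 and log2 was taken. Genes were named from the platform annotation (19065 probe sets with 1 gene), 1 probe set per gene with the highest mean was used, and the 9162 genes that reached 50 on 3 or more arrays were fitted over all 6 groups with limma 3.58.1 in R 4.3.3 (lmFit, contrasts, eBayes with an intensity trend), with Benjamini-Hochberg adjustment per comparison. The same fit over 13705 probe sets gave the values of single probe sets. All adjusted p are two-sided limma values unless another test is named, and 3 arrays per group limit the precision. The replicates are separate experiments, each of pooled dishes of 1 line. The script was tested on simulated data.

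The named genes are the 10 members with all their probe sets, the other annexins and S100 genes measured, the partners called in a dose comparison, and the genes most alike in pattern. Members and lists were chosen with earlier results of these data known. Alternatives were floors of 8 and 32, log2 of signal plus 16, quantile normalization, median scaling, no filter, a filter of 100, the mean of probe sets, only the arrays compared, no trend, the replicate number as a block, array weights, the methods' t-test, the exchange of 2 arrays of 1-week cells, and leaving out each array.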

Additional observations from a re-analysis of the deposited data

Results flagged for a closer look

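The fold change of rotenone over the vehicle of the same week differed between 4 weeks and 1 week in 11 tests of the interaction (limma, log2 fold change at 4 weeks minus that at 1 week). These differences also take in the change between the 2 vehicle groups, whose part was not tested. With 5 nM the difference was 1.31 for ANXA1 (adjusted p = 0.000602), -1.43 for S100A10 (0.000305), -3.47 for S100A11 (0.000141) and -2.84 for S100B (4.58e-06). With 50 nM it was 1.00 for ANXA1 (adjusted p = 0.00269), 0.87 for ANXA4 (0.0159), 0.71 for ANXA7 (0.0462), -0.76 for ANXA2 (0.0023), -1.67 for S100A10 (3.31e-05), -1.68 for S100A11 (0.0147) and -1.81 for S100B (0.000119). The ANXA7 difference was lost without any one of 13 of the 18 arrays, and that of ANXA4 without 4w50 nM replicate 1 (0.74, adjusted p = 0.0507). With 1w5 nM replicate 2 and 1w50 nM replicate 3 exchanged, the differences of ANXA4 and ANXA7 were 0.64 (adjusted p = 0.127) and 0.65 (0.0865), and that of ANXA6 passed (-0.47, adjusted p = 0.0224).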

How the results depend on the processing

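Over 27 called results of single genes, the 14 other settings gave 367 values, of which 340 kept their direction and call, 27 no longer passed and 0 reversed. Leaving out an array of the groups compared gave 228 values, of which 203 kept the call, 25 no longer passed and 0 reversed. Counts of the 10 genes called moved as follows, and the shares of all genes called under these settings were not computed. For 4w5 nM against 4w0 nM (4) the mean of all probe sets gave 6 (ANXA4 and ANXA7 gained) and array weights 7. For 4w50 nM against 4w0 nM (3) the mean of all probe sets and only the arrays compared gave 5 each, and array weights 7. For 1w5 nM against 1w0 nM (1) quantile normalization, median scaling, the filter of 100, the mean of all probe sets and array weights gave 2 each, and only the arrays compared, the methods' t-test and the exchange of 2 arrays gave 0. For 1w50 nM against 1w0 nM (3) quantile normalization gave 5, median scaling, no filter, only the arrays compared and no trend 2 each (S100A11 lost) and the methods' t-test 0. For 4w50 nM against 4w5 nM (4) no filter and only the arrays compared gave 2 each and the methods' t-test 0. For 1w50 nM against 1w5 nM (0) array weights gave 4. For 4w0 nM against 1w0 nM (1) median scaling and array weights gave 2 each, and only the arrays compared and the methods' t-test 0. Of the 15 probe sets, 7 passed with each dose at 4 weeks, and with 1 probe set per gene 4 with 5 nM and 3 with 50 nM.

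Leaving out each array in turn gave 4 to 5 calls for 4w5 nM and 3 to 4 for 4w50 nM against 4w0 nM, 0 to 3 for 1w5 nM and 2 to 4 for 1w50 nM against 1w0 nM, 2 to 4 between the doses at 4 weeks, 0 at 1 week, 1 to 3 between the vehicle groups, and 4 to 6 and 5 to 8 for the differences between weeks with 5 nM and 50 nM. The replicate block lost the call of S100A11 in 1w50 nM (log2 fold change 1.10, adjusted p = 0.0631) and left 2 calls there; same-numbered rotenone and vehicle arrays of the same week correlated in their deviations with r of -0.28 to 0.19, and since the labels do not say what the numbers mark, they were not taken to pair the arrays. The cause of these changes was not tested, apart from fewer arrays or other genes in the fit by construction. The weights had not converged to tolerance. The 3 arrays per group limit what could be called, and ANXA4 was near the filter.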
